A study of Rattus norvegicus with 20 samples.

Results

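Cytosolic ribosomal proteins are the protein components of the ribosome that translates nuclear-encoded messages, as opposed to the separate ribosome inside mitochondria. Their probe sets were chosen by name from the platform annotation: a probe set, the group of array probes that measures 1 transcript, was taken if its single gene symbol had the usual Rpl, Rps or Rplp form, without regard to any signal. The choice of this family was made with earlier results of these data known. The rule gave 47 probe sets for 43 genes, out of 31042 probe sets tested and 14217 named genes. The members held 30 genes of the large subunit and 13 of the small subunit. Another 33 probe sets carried several symbols of which 1 or more fitted the pattern, and these lie outside the rule. Rplp1, Rplp2 and Rps4x are therefore not analysed here.

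RNA came from the right ventricle of male Sprague Dawley rats of about 350 g. PE rats received 2000000 polystyrene microspheres of 25 micron per 100 g body weight through the jugular vein, suspended in 0.01% Tween-20, a model of chronic pulmonary embolism (PE) in which the spheres lodge in the lung circulation. Vehicle rats received the 0.01% Tween-20 alone. After 6 weeks every heart was perfused with saline, and the right ventricle was separated into outflow tract (the base) and apex. The 4 groups were PE outflow, vehicle outflow, PE apex and vehicle apex, with 5 biological replicates and 1 array per replicate in each. One text field described vehicle treatment for all 20 samples, and the groups follow the titles, which separate PE from vehicle. All 11 measured cardiomyocyte markers had a mean signal above 100 in every group.

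A ribosome holds 1 copy of most of these proteins, and their messages are among the most abundant of any cell. Many of the messages begin with a run of pyrimidines (a 5′ terminal oligopyrimidine, or TOP, element) through which the mTOR kinase controls their translation, and MYC raises the transcription of ribosome components. A few ribosomal proteins have paralogues made in particular tissues. In mouse and human, Rpl3l is made in heart and skeletal muscle and can take the place of Rpl3, a core protein of the large subunit near the peptidyl transferase centre.

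RefSeq start-site windows (GRCr8 build, 250 bases before to 50 after each gene's annotated start) were found for 38 of the 43 genes. The windows are shown for the paralogue pair on which the results turn, for 3 further members that were called, and for Rplp0, the stalk protein often taken as a reference gene. Each line runs 5′ to 3′ from 60 bases before the start to 20 after it, and the capitals mark the longest run of pyrimidines (C or T) within 20 bases either side of the start. The printed stretches are Rpl3 at chr7:113507971-113508050 (minus strand), Rpl3l at chr10:14258386-14258465 (plus strand), Rps23 at chr2:23814457-23814536 (plus strand), Rps28 at chr7:15311314-15311393 (minus strand), Rpl4 at chr8:73566417-73566496 (plus strand) and Rplp0 at chr12:46718371-46718450 (minus strand).
Rpl3: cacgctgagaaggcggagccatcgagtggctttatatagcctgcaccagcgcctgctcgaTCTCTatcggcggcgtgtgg
Rpl3l: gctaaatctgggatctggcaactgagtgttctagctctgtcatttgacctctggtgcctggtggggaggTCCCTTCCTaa
Rps23: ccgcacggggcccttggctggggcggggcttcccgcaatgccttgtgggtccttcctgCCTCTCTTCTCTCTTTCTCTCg
Rps28: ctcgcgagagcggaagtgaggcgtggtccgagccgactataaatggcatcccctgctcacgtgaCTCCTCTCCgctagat
Rpl4: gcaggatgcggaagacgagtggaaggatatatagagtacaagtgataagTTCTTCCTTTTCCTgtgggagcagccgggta
Rplp0: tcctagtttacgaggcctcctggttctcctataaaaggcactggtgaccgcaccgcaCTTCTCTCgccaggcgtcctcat

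The run was 21 bases in Rps23, 14 in Rpl4, 9 in Rps28 and Rpl3l, 8 in Rplp0 and 5 in Rpl3. A run of at least 8 pyrimidines in this stretch was found in 26 of the 38 member windows (68.4%), against 15.5% of all 27457 RefSeq windows, and the median longest run was 10 bases for members and 5 for all windows. On both strands, 2 short motifs were also searched over the whole window. The letters CCGGAAG, a form of the ETS family motif, were in 8 member windows (21.1%, against 9.2% of all windows), and CATTCC, the core of the TEAD motif known from muscle promoters, was in 7 (18.4%, against 13.9%), including Rpl3l but none of the other 5 shown. A CATTCC match can share letters with a pyrimidine run. These matches describe the letters of annotated windows and are not mapped sites.

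In the outflow tract, PE hearts had 2.06-fold more Rpl3 message and 4.88-fold less Rpl3l message than vehicle hearts. The Rpl3 signal of the brighter probe set (1371300_at) was 22679, 27431, 25492, 28887 and 25408 in PE outflow replicates 1 to 5, against 11898, 12336, 13046, 15238 and 10816 in vehicle outflow. Every PE outflow array lay above every vehicle outflow array. The means were 25979 ± 2346 in PE outflow and 12667 ± 1649 in vehicle outflow (SD, n = 5 each), a log2 fold change of 1.04 ± 0.10 (SE; limma adjusted p = 4.53e-07), or 2.06-fold.

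Rpl3l (1376884_a_at) went the opposite way. Its signal was 2796, 3443, 2061, 1161 and 944 in PE outflow replicates 1 to 5, against 8995, 8284, 8254, 9312 and 10949 in vehicle outflow. Again no PE outflow array reached the vehicle range, and PE outflow replicates 4 and 5 were the lowest of all. Mean signals were 2081 ± 1061 in PE outflow and 9159 ± 1100 in vehicle outflow (SD, n = 5 each), a log2 fold change of -2.29 ± 0.25 (SE; limma adjusted p = 1.29e-06), which is 4.88-fold lower in PE outflow. Both calls were made under all 31 other settings tried, including without any single array and with PE outflow replicates 1 and 3 alone.

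In the apex the shift ran in the same directions but was smaller, and neither gene was called. Rpl3 signals were 15755, 13470, 14874, 14201 and 14728 in PE apex, against 12524, 12454, 11928, 11668 and 11941 in vehicle apex. Its groups did not overlap, with a log2 fold change of 0.27 ± 0.10 (SE; limma adjusted p = 0.547). Rpl3l signals were 6010, 6587, 5194, 6352 and 6249 in PE apex, against 7821, 8347, 9372, 9050 and 8130 in vehicle apex. These groups did not overlap either, and the log2 fold change was -0.49 ± 0.25 (SE; limma adjusted p = 0.705). The shared error of the model includes the wide spread of Rpl3l in PE outflow, and in a fit of the apex arrays alone the SE was 0.10 and the adjusted p 0.181. The PE effect was larger in the outflow tract than in the apex for both genes, by 0.77 for Rpl3 (limma adjusted p = 0.00158) and by -1.80 for Rpl3l (limma adjusted p = 0.00212). In vehicle hearts the outflow tract and the apex did not differ detectably in either gene (log2 differences of 0.06 ± 0.10 SE for Rpl3 and 0.10 ± 0.25 SE for Rpl3l, neither called).

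**Figure D1:**
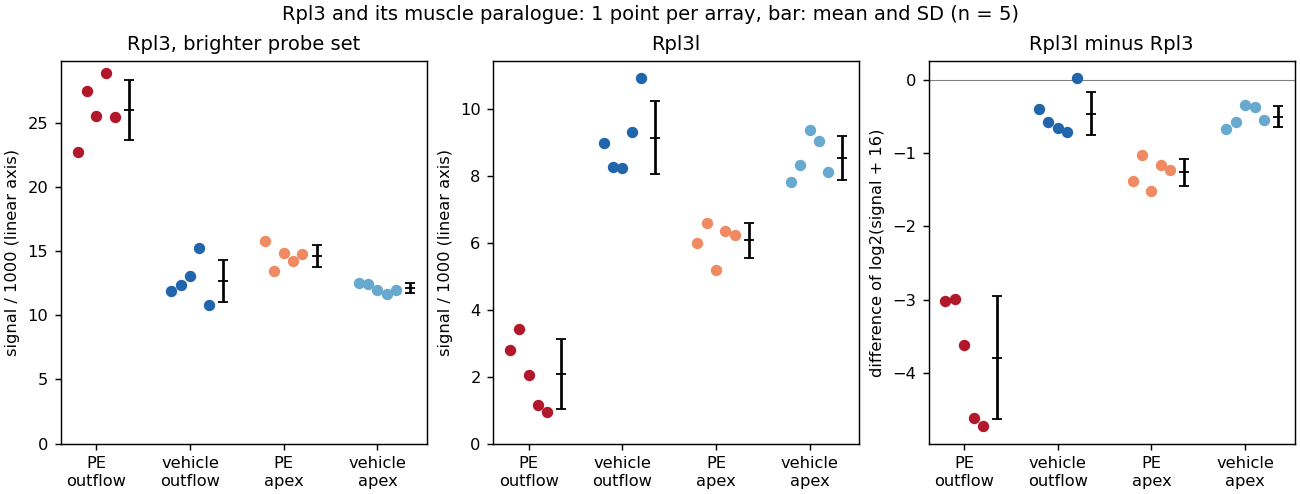
Signal of the brighter Rpl3 probe set (left) and of Rpl3l (middle) on linear axes, and the log2 difference between both (right), by group, with 1 point per array and the mean ± SD beside it. PE outflow stands apart in each panel, with Rpl3 at 22679 to 28887 and Rpl3l at 944 to 3443, and the PE apex means lie between those of PE outflow and the vehicle groups.

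The log2 difference of Rpl3l minus Rpl3 within an array averaged -3.79 ± 0.84 in PE outflow and -0.47 ± 0.29 in vehicle outflow (SD, n = 5 each), so that it was 3.33 lower in PE outflow (a difference of -3.33; exact permutation test, two-sided, p = 0.00794). In the apex it averaged -1.27 ± 0.19 in PE and -0.50 ± 0.14 in vehicle (SD, n = 5 each), a difference of -0.76 (exact permutation test, two-sided, p = 0.00794). This is the smallest p that 252 splits of 5 against 5 arrays allow, and adjustment over the 2 regions leaves it at 0.00794. In both regions Rpl3 lay wholly above and Rpl3l wholly below the vehicle range, so the difference had to separate as well. The p was thereby fixed and adds nothing to what the 2 genes showed singly. The values show an unequal change of the 2 probe sets and do not compare the amounts of the 2 messages. With the mean of all probe sets of each gene, the outflow difference was -3.29, but the apex difference was -0.16 (exact permutation p = 0.492), so the apex result rests on the brighter Rpl3 probe set.

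The second Rpl3 probe set (1396049_x_at), whose suffix marks probes that may bind other transcripts, was far dimmer. It read 584, 773, 637, 758 and 603 in PE outflow, against 508, 402, 419, 353 and 134 in vehicle outflow, again without overlap (log2 fold change 0.96 ± 0.35 SE, limma adjusted p = 0.0387). In the apex it ran against the brighter probe set, at 460, 121, 141, 243 and 315 in PE and 227, 584, 479, 577 and 499 in vehicle (log2 fold change -0.93 ± 0.35 SE, limma adjusted p = 0.532). The outflow call of this dim probe set was lost in 12 of 31 other settings.

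Cell-type markers moved with these genes. In PE outflow against vehicle outflow, 9 of 11 measured cardiomyocyte markers fell and none rose. Their median log2 fold change was -0.68, with a range of -1.52 to -0.35, and Rpl3l stood at -2.29 in the same fit. The summed signal of the 11 cardiomyocyte markers was 189820 to 534630 in PE outflow and 406680 to 482820 in vehicle outflow. Without PE outflow replicate 2, whose RNA quality is described below, all 11 cardiomyocyte markers fell (median -0.91). All 11 also fell with the GAPDH ratio as a covariate (median -1.105), while 6 fell after quantile normalization (median -0.31). Of the fibroblast markers 11 of 12 rose, with summed signals of 183360 to 215920 in PE outflow and 72516 to 105640 in vehicle outflow, and 11 of 12 macrophage markers rose, with sums of 17508 to 43358 in PE outflow and 11938 to 17948 in vehicle outflow. Of 8 smooth muscle markers 6 rose and 2 fell, of 7 adipocyte markers 4 rose and 1 fell, and of 7 skeletal muscle markers 3 rose and 2 fell. In vehicle outflow 4 of the adipocyte and 5 of the skeletal muscle markers had a mean signal under 100. The adipocyte sum was 10892 to 16012 in PE outflow and 9517 to 16859 in vehicle outflow. The skeletal muscle sum was 19632 to 53674 in PE outflow and 54243 to 67907 in vehicle outflow. Ckm is on both the cardiomyocyte and the skeletal muscle list. Of 10 endothelial markers 2 rose and 1 fell (30% called, near the share of all probe sets), with a median log2 fold change of -0.06. The endothelial sum was 21973 to 26825 in PE outflow and 15852 to 20717 in vehicle outflow. Of 11 lymphocyte markers 4 rose (36.4%) and none fell, where 19.6% of all probe sets were called higher and 14.9% lower. Of the 11, 4 had a mean signal under 100 in PE outflow, against 7 in vehicle outflow. In bulk tissue, fewer cells of a type and less RNA per cell cannot be told apart, and the part of these cell types in the Rpl3 and Rpl3l results was not tested. No marker of any of the 8 lists was called in the apex, where 0.0129% of all probe sets were called.

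Most other ribosomal proteins showed no such change. In PE outflow against vehicle outflow, 7 of the 47 members were called at an adjusted p under 0.05, 6 higher and 1 lower, where 34.5% of all 31042 probe sets were called (19.6% higher and 14.9% lower). The groups did not overlap for 5 members, 4 higher and 1 lower, where they did not for 23.3% of all probe sets (13.4% higher and 9.98% lower). The median log2 fold change was 0.18 over the 47 members and 0.05 over all probe sets. The members were bright, and 37 of them were among the 492 probe sets that averaged more than 13 on the log2 scale, of which 68.7% were called (9.76% higher). The members above that level were called in 4 of 37 cases, all higher.

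The large subunit had 4 called probe sets of 33, namely both Rpl3 probe sets and Rpl3l, and beside these Rpl4, whose protein lines the exit tunnel for the growing chain. Rpl4 signals were 16894, 19040, 16042, 19613 and 17958 in PE outflow and 14462, 14718, 14163, 16224 and 13490 in vehicle outflow. The ranges overlapped by 1 array on either side, and the log2 fold change was 0.29 ± 0.10 (SE; limma adjusted p = 0.0221). Rpl22, which has a close paralogue and binds RNA outside the ribosome as well, was not called in the outflow tract (log2 fold change 0.30 ± 0.12 SE, limma adjusted p = 0.058). It was called as higher in 7 of 31 other settings, and its value over all of them ran from 0.11 to 0.65. Rplp0 was almost level, with signals of 19449, 25356, 19669, 23143 and 21129 in PE outflow and 20523, 20375, 20201, 22424 and 21158 in vehicle outflow (log2 fold change 0.05, 95% interval -0.15 to 0.25, limma adjusted p = 0.75), and its sign turned to -0.09 when each array was centred on its median.

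The small subunit had 3 called probe sets of 14. Rps23, a protein of the decoding centre, had signals of 24618, 40625, 24983, 32336 and 29838 in PE outflow and 22232, 24256, 22530, 24527 and 16115 in vehicle outflow. The groups did not overlap, but PE outflow replicates 1 and 3 lay only just above the highest vehicle array (log2 fold change 0.47 ± 0.14 SE, limma adjusted p = 0.0117). Rps28, a small protein of the head of the subunit, read 15533, 27676, 16785, 20167 and 19042 in PE outflow and 15371, 14476, 13754, 16590 and 12088 in vehicle outflow (log2 fold change 0.43 ± 0.14 SE, limma adjusted p = 0.0178), with PE outflow replicate 1 inside the vehicle range. Replicate 2 was the highest PE outflow array for both genes. A dim Rps24 probe set (1390494_at) rose by 0.52 ± 0.14 on the log2 scale (limma adjusted p = 0.00744), whereas the bright Rps24 probe set stood at -0.04 ± 0.12. Rps6, the substrate of S6 kinase, was not called (log2 fold change 0.21 ± 0.12 SE, limma adjusted p = 0.217), and neither was the dim paralogue Rps27l (0.34 ± 0.20 SE, limma adjusted p = 0.22).

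**Figure D2:**
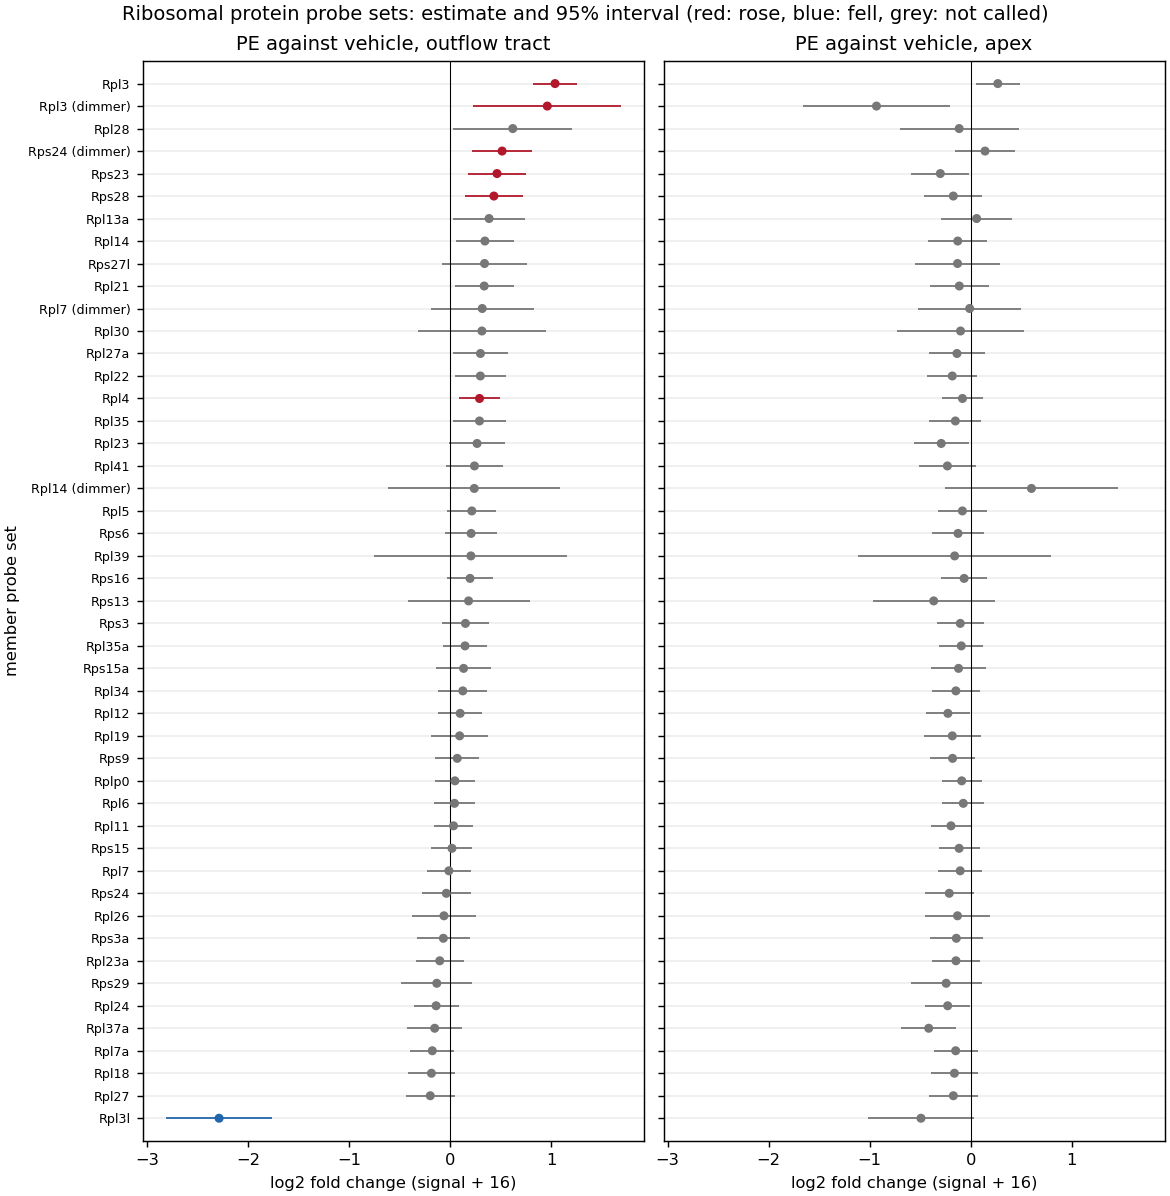
Log2 fold change of the 47 member probe sets, PE against vehicle, with 95% intervals, in the outflow tract (left) and the apex (right), in the order of the outflow values; red rose, blue fell, grey was not called. Rpl3 at 1.04 and Rpl3l at -2.29 stand apart from the bright members other than Rpl3 in the outflow tract, and nothing was called in the apex.

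Whether these smaller rises are counted as rises depended on the scaling of the arrays and on the PE outflow arrays that stood apart. For the GAPDH control transcript, signal at the 3′ end over that at the 5′ end, a measure that grows with shorter RNA, was 1.71, 6.12, 1.70, 2.20 and 2.34 on PE outflow replicates 1 to 5, against 1.38 to 1.83 on all other arrays. The median deviation of 36 bright members (Rpl3 left out) from the vehicle outflow mean was -0.04, 0.36, -0.01, 0.15 and 0.07 on the same arrays, against -0.16 to 0.16 on vehicle outflow arrays. Replicate 2 was the highest and replicates 1 and 3 the lowest on both measures. With replicates 1 and 3 alone in their group, 3 members were called, 1 higher (Rpl3) and 2 lower (Rpl3l and Rps29). That setting called 23.5% of all probe sets. Without replicate 2, 8 members were called, 6 higher and 2 lower, of which 6 were among the 7, where 37.1% of all probe sets were called. With the GAPDH ratio as a covariate, 7 were called, 2 higher and 5 lower, where 32.3% of all probe sets were called.

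Centring each array on its median gave 5 calls, 1 higher (Rpl3) and 4 lower, and quantile normalization gave 35, of which 34 were higher. Of all probe sets, 33.4% were called after centring and 34% after quantile normalization. The median over all probe sets was -0.08 after centring and 0.05 as deposited. Relative to that median the 36 bright members stood at 0.06 in both, and at 0.49 after quantile normalization. The direction of the ordinary ribosomal proteins in the outflow tract is therefore not settled by these arrays, whereas Rpl3 was higher and Rpl3l lower under each of these settings. For the 33 bright members that were not called, the log2 fold changes as deposited ran from -0.20 to 0.39, and their 95% intervals lay between -0.48 and 0.74.

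**Figure D3:**
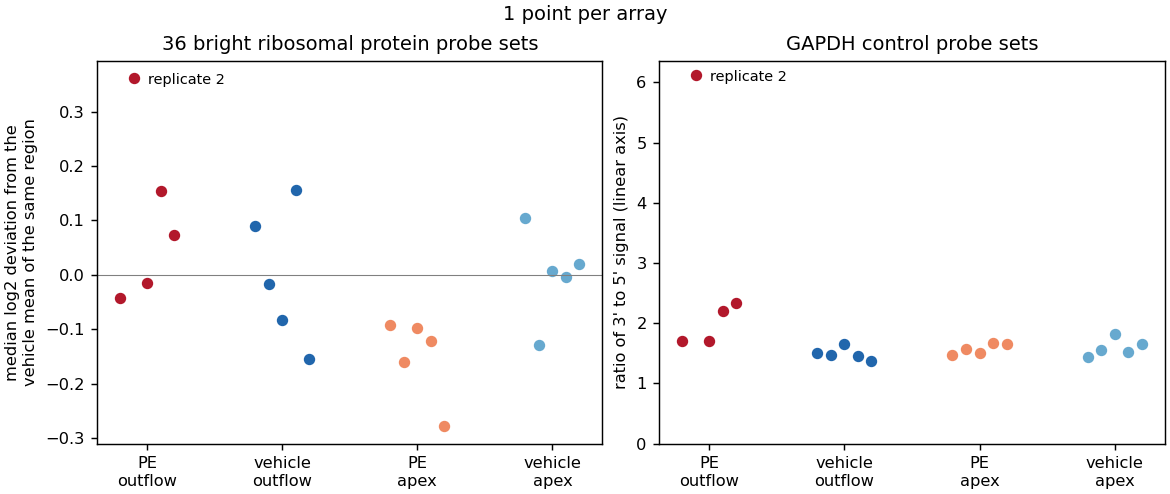
Median log2 deviation of 36 bright member probe sets from the vehicle mean of the same region (left) and ratio of 3′ over 5′ GAPDH control signal (right), by group, with 1 point per array. PE outflow replicate 2 is highest in both panels, at 0.36 and 6.12, and the 5 PE apex arrays lie between -0.28 and -0.09 on the left.

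**Figure D4:**
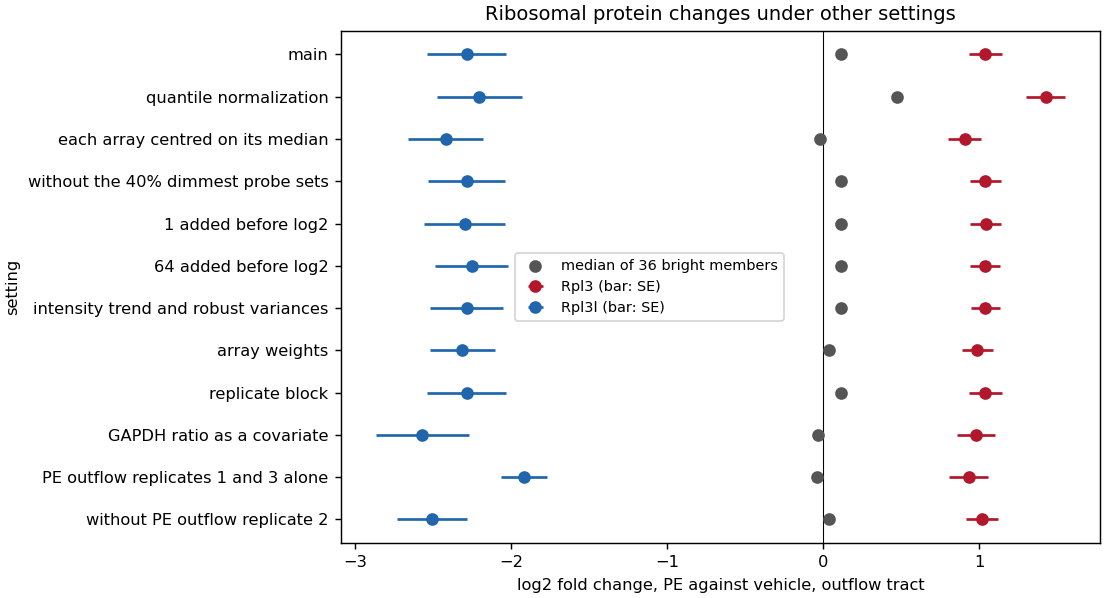
Log2 fold change in the outflow tract, PE against vehicle, under each setting, for Rpl3 and Rpl3l (bars are SE) and for the median of the 36 bright members. Rpl3 lies between 0.91 and 1.43 and Rpl3l between -2.57 and -1.92, while the member median lies between -0.04 and 0.47.

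In the apex no member was called (0 of 47 by limma), and 0.0129% of all probe sets were called. At an unadjusted p under 0.05 there were 7 members, against 7.47% of all probe sets. The members leaned downwards, with 43 of 47 negative, a median log2 fold change of -0.14, and 35 of the 36 bright members other than Rpl3 negative. The bright probe sets of the array leaned the same way, with 412 of 492 negative and a median of -0.15, while the median of all probe sets was 0.00. Quantile normalization brought the median of the 36 members to -0.01, with 17 positive. On the 5 PE apex arrays the median deviation of these members from the vehicle apex mean was -0.09, -0.16, -0.10, -0.12 and -0.28, against 0.10, -0.13, 0.01, -0.00 and 0.02 on the vehicle apex arrays. GAPDH ratios were 1.47 to 1.67 in PE apex and 1.44 to 1.83 in vehicle apex.

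In PE apex, 5 members lay wholly below the vehicle range, namely Rpl3l, Rpl11, Rpl23, Rpl24 and Rps23, and Rpl3 lay wholly above it, where 3.06% of all probe sets did not overlap (1.56% higher and 1.5% lower). Of the 492 bright probe sets, 99 lay wholly below the vehicle range and 5 wholly above it. Among the 37 bright members 4 lay below and 1 above, so lying below was not particular to the members. Rps23 read 20122, 19714, 20628, 19359 and 18126 in PE apex and 23560, 24047, 24162, 25304 and 23469 in vehicle apex (log2 fold change -0.30 ± 0.14 SE, limma adjusted p = 0.641). Rpl23 read 18454, 17335, 18422, 18618 and 15470 in PE apex and 23822, 19251, 20115, 22365 and 22573 in vehicle apex (log2 fold change -0.29 ± 0.13 SE, limma adjusted p = 0.636). The smallest p among the members was that of Rpl37a, at -0.41 ± 0.13 (SE, limma adjusted p = 0.394), whose groups overlapped. Rplp0 stood at -0.09, Rps6 at -0.12, Rps27l at -0.13 and Rpl22 at -0.18, none called. Log2 fold changes of the 36 bright members other than Rpl3 ran from -0.41 to 0.06, with 95% intervals between -0.69 and 0.41.

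The test of the difference between the 2 PE effects called 6 of 47 members, 5 higher in the outflow tract and 1 lower, where 17.9% of all probe sets were called (9.84% higher and 8.09% lower). Beside both Rpl3 probe sets (0.77 and 1.90 on the log2 scale) and Rpl3l (-1.80), these were Rps23 (0.77 ± 0.19 SE, limma adjusted p = 0.00994), Rps28 (0.61 ± 0.19 SE, limma adjusted p = 0.0353) and Rpl23 (0.56 ± 0.19 SE, limma adjusted p = 0.0423). Of the 492 bright probe sets 45.9% were called, 23 higher and 203 lower, and of the 37 bright members 4, all higher. Rpl23, which like Rpl5 and Rpl11 also binds the p53 regulator MDM2, was not called in the outflow tract itself (0.27 ± 0.13 SE, limma adjusted p = 0.129). The Rps28 call was lost in 14 of 30 other settings and the Rpl23 call in 18 of 30, in each case including centring, the GAPDH covariate and replicates 1 and 3 alone, while the Rps23 call was lost under the covariate and with those replicates alone.

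Set directly against each other within PE hearts, outflow tract and apex differed in 14 of 47 members, 13 higher in the outflow tract and 1 lower, where 28.7% of all probe sets were called (16% higher and 12.7% lower). The regions did not overlap for 14 members, 13 higher and 1 lower, where they did not for 20.1% of all probe sets (11.5% higher and 8.64% lower). Of the 492 bright probe sets 66.1% were called, 54 higher and 271 lower. Among the 37 bright members 11 were called, all higher. Rpl3 was 0.83 ± 0.10 higher (SE, limma adjusted p = 1.1e-05) and Rpl3l 1.70 lower, with a log2 fold change of -1.70 ± 0.25 (SE, limma adjusted p = 5.34e-05). Rpl14, a large subunit protein, read 10287, 10077, 10165, 13828 and 13976 in PE outflow and 7818, 7777, 7025, 6591 and 6735 in PE apex, with no overlap (log2 fold change 0.68 ± 0.14 SE, limma adjusted p = 0.000894). This probe set was called under all 31 other settings. A second, very dim Rpl14 probe set (1375375_at) read 20.1 to 51.8 in PE outflow and 22.5 to 56.4 in PE apex. It was not called (-0.16, limma adjusted p = 0.822). Rps23 (0.61), Rps28 (0.50), Rpl23 (0.41), Rpl22 (0.40) and Rpl35 (0.38) were higher in PE outflow as well. These 5 calls were all lost with PE outflow replicates 1 and 3 alone, where the values were 0.34, 0.23, 0.21, 0.21 and 0.15 in the order just given. Rpl23, Rpl22 and Rpl35 also lost theirs after centring (0.32, 0.30 and 0.28) and with the GAPDH covariate (0.28, 0.27 and 0.16), and Rps28 with the covariate (0.24). Rpl23 and Rpl35 lost theirs without PE apex replicate 5 (0.37 and 0.36) or without PE outflow replicate 4 (0.37 and 0.36), and Rpl35 without PE outflow replicate 2 (0.27). Rpl28 was higher by 0.96 ± 0.28 (SE, limma adjusted p = 0.0138), but its probe set is dim, at 48.4 to 113 in PE outflow and 9.96 to 52.7 in PE apex, and its groups overlapped. That call was lost with the covariate (0.86) and with replicates 1 and 3 alone (0.60). In vehicle hearts no member differed between the regions (0 of 47 by limma, and 0 at an unadjusted p under 0.05), where 0% of all probe sets were called and 3.71% had an unadjusted p under 0.05.

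Within groups the bright members varied together. After the group means were removed, the median pairwise correlation across the 20 arrays was 0.662 for the 36 bright members and 0.307 for all 492 bright probe sets (0.616 and 0.229 without PE outflow replicate 2). The points share arrays, scaling and brightness, and the values are descriptions.

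The 73 mitochondrial ribosomal proteins, which are encoded in the nucleus and translate the few messages made inside mitochondria, gave a contrast. In PE outflow against vehicle outflow 67 fell and none rose (91.8% called, where 34.5% of all probe sets were called and 14.9% fell), with a median log2 fold change of -0.79, against 4 risen and 1 fallen of the 43 cytosolic genes with a median of 0.15. The cardiomyocyte markers moved with them (9 of 11 fell, median -0.68), and their part in this fall was not tested. The log2 fold change was -1.37 for Mrps28 (limma adjusted p = 2.65e-07), -1.37 for Mrpl3 (limma adjusted p = 3.86e-07) and -1.34 for Mrpl50 (limma adjusted p = 5.7e-07). Between 63 and 71 of the 73 fell under other scalings, with replicates 1 and 3 alone and without replicate 2. None was called in the apex, where the median was -0.13. This list was formed by symbol after the data had been seen.

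Among 12 elongation and termination factors, 1 rose and 2 fell in the outflow tract (25% called, against 34.5% of all probe sets). Eef1a2 is the form of elongation factor 1A made in adult muscle and neurons, and Eef1a1 the form made in most other cells. Eef1a2 signals were 7717, 3656, 6127, 2632 and 1986 in PE outflow and 14881, 15629, 15148, 16181 and 13469 in vehicle outflow, without overlap (log2 fold change -1.94 ± 0.25 SE, limma adjusted p = 7.83e-06). It stood at -1.13 with replicates 1 and 3 alone and was still called. A dim Eef1a2 probe set was not called (-0.27, limma adjusted p = 0.627). Eef1a1 stood at 0.32 (limma adjusted p = 0.0687), and its second probe set, of nearly equal brightness, at 0.34 (limma adjusted p = 0.037). The first of these stood at 0.18 without PE outflow replicate 2 (limma adjusted p = 0.165), 0.10 with replicates 1 and 3 alone, 0.04 with the GAPDH covariate and 0.65 after quantile normalization. In the apex Eef1a2 stood at -0.09 (limma adjusted p = 0.969), and the PE effects of the regions differed by -1.85 (limma adjusted p = 0.00185). The release factor Gspt1 fell by 0.58 and Eef1b2, an exchange factor subunit for eEF1A, rose by 0.43. The Eef1b2 call was lost after centring (0.29, limma adjusted p = 0.0517) and with replicates 1 and 3 alone (0.28, limma adjusted p = 0.135).

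Of 34 initiation factors 4 rose and 12 fell in the outflow tract (47.1% called, against 34.5% of all probe sets), with a median of -0.01. Eif3j fell by 1.03 on the log2 scale (limma adjusted p = 4.71e-07), the cap-binding protein Eif4e by 0.69 and Eif5a by 0.72. Of 44 genes of ribosome biogenesis and RNA polymerase I 12 rose and 5 fell (38.6% called, near the share of all probe sets), with a median of 0.15. The importin Ipo5 fell by 0.93 and the snoRNP protein Nop10 by 0.61, while the pre-rRNA factor Nip7 rose by 0.63. Only 1 rose and 2 fell of these 44 with replicates 1 and 3 alone, where 23.5% of all probe sets were called. Of 26 regulators in the mTOR and MYC pathways 3 rose and 6 fell (34.6% called, against 34.5% of all probe sets), among them Rps6ka3, an S6 kinase of the RSK family, which rose by 0.99, and the mTOR inhibitors Deptor and Sesn1, which fell by 0.68 and 0.99. Myc was higher by 1.06 ± 0.23 (SE, limma adjusted p = 0.00101). These counts moved with the scaling. After centring, 0 initiation factors rose and 13 fell, 5 biogenesis genes rose and 8 fell, and 2 pathway regulators rose and 9 fell, while quantile normalization gave 6 risen and 2 fallen elongation and termination factors. Of 4 ribosomal proteins outside the naming pattern only Rpl7l1 was called (0.35, limma adjusted p = 0.0144). That call was lost after centring (0.22, limma adjusted p = 0.215) and with replicates 1 and 3 alone (0.26, limma adjusted p = 0.165), each leaving 0 of the 4 called, and quantile normalization called 3. Of the 33 probe sets with several symbols 4 rose and 1 fell, with a median of 0.06. No gene of these lists was called in the apex.

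**Figure D5:**
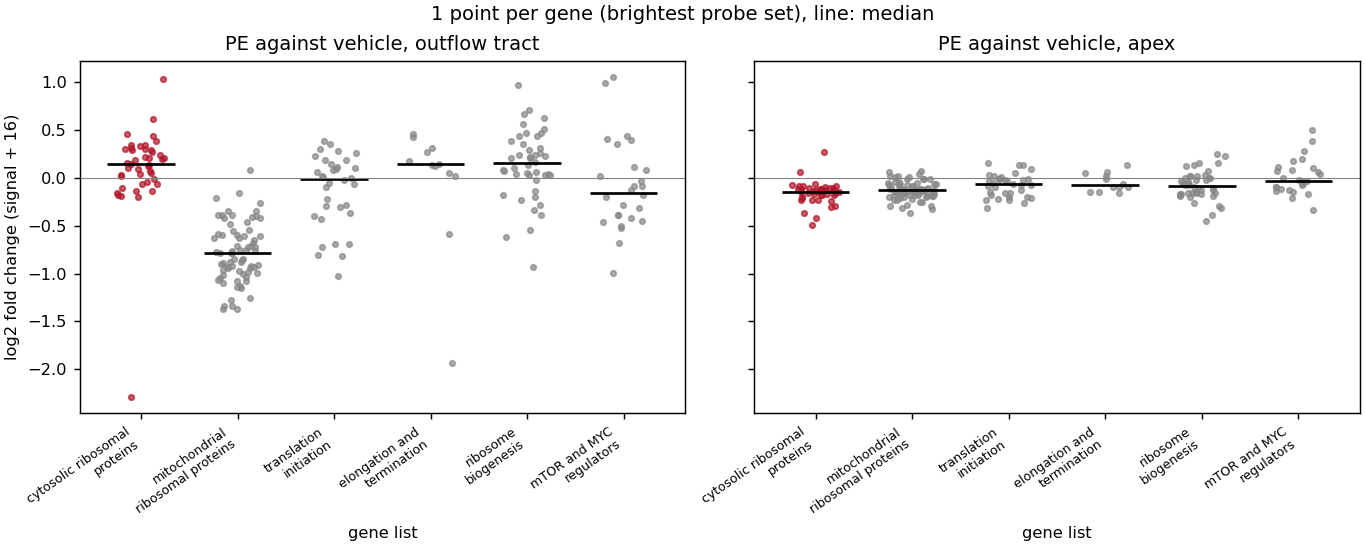
Log2 fold change, PE against vehicle, in the outflow tract (left) and the apex (right), with 1 point per gene at its brightest probe set and a line at the median of each list. In the outflow tract the cytosolic ribosomal proteins (median 0.15) lie near 0 apart from Rpl3 and Rpl3l, the mitochondrial ones lie near -0.79, and in the apex the medians of all 6 lists lie between -0.15 and -0.03.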

How the data were processed

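RNA of 20 right ventricle samples was measured on Affymetrix arrays. Per the labels, the authors deposited 1 signal intensity per probe set and array, on a linear scale. The software behind it is not given in the sources used here. With 2% of values trimmed from either end, all arrays had a mean of 500.2, so the authors had scaled them. The 57 control probe sets were not tested.

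Signals were taken as log2(signal + 16). A model of the 4 group means over all 20 arrays was fitted with limma 3.58.1 in R 4.3.3 (eBayes), two-sided, with Benjamini-Hochberg adjustment over 31042 probe sets. A call needs an adjusted p under 0.05. The step was tested on simulated data. Fold changes are of signal + 16, and the number of arrays limits the precision. Of several probe sets of a gene, the brightest stands for the gene. Symbols came from the platform annotation, which gave 1 symbol for 20826 probe sets, several for 436 and none for 9780.

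Named are index members (Rpl3, Rpl3l, Rplp0, Rps6, Rps27l, Rpl22), the called members that rose most and fell most (up to 8 each, and 4 each for the difference between regions), and up to 3 called genes per list with the smallest p. Myc, Eef1a1, Rpl37a and the genes of small counts were named after their values were seen. The members and lists were chosen with earlier results of these data known.

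Outflow and apex arrays of 1 replicate number deviated together from their group means (r of 0.181 to 0.283 for PE and of 0.181 to 0.275 for vehicle), so a number was taken to mark 1 rat of a treatment. Between PE and vehicle arrays of 1 number, r was -0.283 to 0.154. Alternatives covered scaling, the added constant, dim probe sets, the variance model, array weights, RNA quality, a replicate block and leaving out each array.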

Additional observations from a re-analysis of the deposited data

Results flagged for a closer look

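The PE effect differed between outflow tract and apex in 6 of 47 member probe sets (12.8%), where it did in 17.9% of all probe sets. The difference on the log2 scale was 0.77 for Rpl3, 1.90 for its dim probe set, -1.80 for Rpl3l, 0.77 for Rps23, 0.61 for Rps28 and 0.56 for Rpl23.

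The 64 groups of 5 arrays tested were those of 15 named member probe sets and of the Rpl3l minus Rpl3 difference, each in 4 groups, and 1 array stood far from the rest in 4 of them. Rps23 in vehicle outflow replicate 5 was at a log2 signal of 13.98, against 14.44 to 14.58 on the other vehicle outflow arrays. The dim Rpl3 probe set was at 7.22 in vehicle outflow replicate 5, where the others were at 8.53 to 9.03, and at 7.93 in vehicle apex replicate 1, where the others were at 8.95 to 9.23. The dim Rps24 probe set was at 9.31 in PE outflow replicate 5, above the others at 8.75 to 8.90. Chance flags about 1 in 20 groups. Without vehicle outflow replicate 5 the outflow fold change of the dim Rpl3 probe set was 0.66, and it was no longer called (limma adjusted p = 0.129).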

How the results depend on the processing

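Percentages in parentheses are the shares called of all probe sets tested under the same setting. The outflow count of 7 members (34.5%) became 35 after quantile normalization (34%) and 13 without the 40% dimmest probe sets (55.6%). It became 13 with an intensity trend and robust variances (35.3%) and 4 with array weights (35.4%). PE outflow replicates 1 and 3 alone gave 3 (23.5%), and only the groups compared gave 3 (8871 of 31042 probe sets). Adding probe sets of several symbols, an alternative chosen after seeing the data, gave 12 (34.5%). The difference between regions, 6 members (17.9%), became 25 after quantile normalization (17.6%) and 10 without dim probe sets (34.5%). It became 3 with the GAPDH covariate (18.6%) and 2 with replicates 1 and 3 alone (11.7%). Outflow against apex in PE hearts, 14 members (28.7%), became 34 after quantile normalization (28.5%), 7 after centring (27.6%) and 5 with the covariate (27.2%). It became 3 with replicates 1 and 3 alone (17.1%) and 8 with only the groups compared (7391 of 31042 probe sets). Leaving out single arrays gave 5 to 11 members in the outflow tract (11 without PE outflow replicate 1), 4 to 9 for the difference and 10 to 16 in PE hearts. The apex and vehicle region counts were 0 in all settings run. With the replicate block the outflow count was 7 (34.5%) and the difference 7 (19.6%), and no count moved by over 1.5 times. The Rpl3l minus Rpl3 difference was -3.53 to -3.09 in the outflow tract and -0.82 to -0.70 in the apex without single arrays, and -0.16 in the apex with the mean of all probe sets.

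Rplp0 in the outflow tract turned to -0.086 after centring, -0.0103 with array weights, -0.083 with the covariate and -0.097 with replicates 1 and 3 alone, and without single arrays it was -0.0086 (PE outflow replicate 2) to 0.087. After quantile normalization the apex values of Rplp0 and Rps6 were 0.037 and 0.0103. Rpl3 between vehicle regions was -0.0122 (without vehicle outflow replicate 4) to 0.111 without single arrays. The outflow calls of Rps23, Rps28 and Rpl4 were lost in 5, 6 and 7 of 31 settings, among them Rps28 and Rpl4 without vehicle outflow replicate 5 (0.37 and 0.26) and Rpl4 without PE outflow replicate 4 (0.26). The cause was not tested.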
